A study of Mus musculus with 6 samples.

Results

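In all, 10 genes of the insulin-like growth factor (IGF) axis were examined by RNAseq in mammary tumors that arose in NeuT/ATTAC mice: the ligand Igf1, the receptors Igf1r and Insr, the adaptor Irs1 and the binding proteins Igfbp2, Igfbp3, Igfbp4, Igfbp5, Igfbp6 and Igfbp7. They were found by matching the Ensembl gene IDs of the deposited values to mouse gene symbols, which gave 1 ID for each of the 10 symbols among 54532 IDs. All 10 passed the filter on low values that left 15069 genes for testing.

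The series compares 3 tumors from IgG-treated mice with 3 tumors from mice treated with an anti-PD-1 mAb, an antibody against the T cell checkpoint receptor PD-1. NeuT/ATTAC mice carry MMTV-NeuT, an Erbb2 transgene driven by the MMTV promoter in mammary epithelium, and FAT-ATTAC, a transgene that allows fat cells to be ablated with the dimerizer AP20187. FAT-ATTAC came from C57BL/6 and was bred into FVB, the strain of MMTV-NeuT. Every mouse of both groups received AP20187 at 0.4 mg/kg from 6 weeks of age to induce mammary fibrosis, and from 8 weeks of age either IgG or the anti-PD-1 mAb (100 μg, 2 times per week). The comparison therefore holds no tumor without ablation of fat and no untreated tumor. The labels give 6 separate samples, while one legend of the study describes the RNA of several tumors per group as pooled, so the p-values measure the spread between these 6 libraries. The values are FPKM (fragments of a gene scaled to its exon length and to the size of the library), listed throughout for replicates 1, 2 and 3 of a group in that order, and the reads behind them came to between 21075641 and 23852764 per tumor.

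IGF1 binds the IGF1 receptor, a tyrosine kinase closely related to the insulin receptor. Both receptors phosphorylate insulin receptor substrates such as IRS1, which recruit PI3K and so activate AKT. The IGF binding proteins are secreted proteins that hold IGF1 and IGF2 outside the cell and either withhold or deliver them. In the mammary gland, IGF signaling promotes the growth of ducts and the survival of epithelium, and IGFBP5 is known for its increase during involution, when milk-producing epithelium dies.

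The labelled tissue was checked against its markers. The summed FPKM of 5 epithelial markers (Epcam, Cdh1, Krt8, Krt18 and Krt19) was between 1875 and 3601 in the 6 tumors. The sum of 5 fat cell markers was between 1.77 and 6.95, with Lep at 0 in 3 tumors, and the sum of 5 T cell markers between 0.773 and 3.15, with Cd3e, Cd3d and Trac each at 0 in 1 tumor. Fibroblast markers (7 genes, among them Pdgfra, Dcn and Col1a1) summed to 238, 80.2 and 114 FPKM in IgG tumors. In anti-PD-1 tumors they summed to 355, 94.96 and 209.7 FPKM, so that the sum varied widely within both groups. Col1a1, Col3a1 and Col1a2 made up most of it, with means of 61.9, 51.6 and 35.2 FPKM. Their log2 fold changes (anti-PD-1 minus IgG) were 0.76, 0.77 and 0.70, and that of Dpt was 0.76. Pdgfra (-0.12), Dcn (-0.18) and Lum (-0.24) went the other way. Markers of skeletal muscle varied most, from 0.580 FPKM in anti-PD-1 replicate 3 to 134 FPKM in anti-PD-1 replicate 2. In bulk tumors, fewer cells of a type and less RNA per cell cannot be told apart.

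Igfbp5 and Irs1 were the members that separated the groups, and both were lower in anti-PD-1 tumors. Their promoters are shown as the 250 bases before the transcript start, together with that of Igfbp2, whose gene ends 5457 bases from the end of Igfbp5. The sequences are those of RefSeq on GRCm38.p6, for Igfbp5 at chr1:72874866-72875115 and for Irs1 at chr1:82291440-82291689, both on the minus strand, and for Igfbp2 at chr1:72824230-72824479 on the plus strand. All are written 5′ to 3′, and capitals mark the searched motifs. The motifs searched on both strands were the TATA box (TATAAA), the CCAAT box (CCAAT), the GC box (GGGCGG), a STAT site (TTCNNNGAA) and a FOXO site (TGTTTAC).
Igfbp5: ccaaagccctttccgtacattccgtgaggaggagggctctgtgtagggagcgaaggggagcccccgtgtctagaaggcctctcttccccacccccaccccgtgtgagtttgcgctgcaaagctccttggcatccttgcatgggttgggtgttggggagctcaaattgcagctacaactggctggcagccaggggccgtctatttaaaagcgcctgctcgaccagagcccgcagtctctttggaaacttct
Irs1: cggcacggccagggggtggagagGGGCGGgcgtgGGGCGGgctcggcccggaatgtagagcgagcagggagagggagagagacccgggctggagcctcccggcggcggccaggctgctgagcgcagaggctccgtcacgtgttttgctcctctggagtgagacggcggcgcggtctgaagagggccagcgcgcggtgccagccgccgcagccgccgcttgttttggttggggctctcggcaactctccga
Igfbp2: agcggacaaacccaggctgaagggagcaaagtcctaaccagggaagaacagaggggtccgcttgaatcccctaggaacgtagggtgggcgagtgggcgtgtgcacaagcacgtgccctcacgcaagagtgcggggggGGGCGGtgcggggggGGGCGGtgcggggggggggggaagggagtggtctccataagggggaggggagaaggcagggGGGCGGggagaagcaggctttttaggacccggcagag

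A match is a description and not a binding site, and no match says only that these letters are not in the window. None of the motifs was found in the Igfbp5 window, which is 58.8% G or C. The Irs1 window holds 2 GC boxes and the Igfbp2 window 3, with 72.4% and 67.2% G or C. Of 32851 mouse promoters of this length, 32.7% hold a GC box, 33.8% a CCAAT box, 12.4% a TATA box, 7.02% a STAT site and 3.17% a FOXO site. The RefSeq table gives a start for 9 of the 10 members, and 2 starts for Igfbp2, of which the upstream one is shown. Among the windows of the other members, a TATA box match began at position -28 from the transcript start of Igfbp4 and at -148 from that of Igfbp6, there on the opposite strand. Igfbp7 had 4 GC boxes and Igf1r 2, while Igf1 had 1 CCAAT box and Igfbp6 had 2.

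The levels of the 10 transcripts were compared on the FPKM scale, which is per length. Igfbp5 came first, with a mean of 1448 FPKM over the 6 tumors, and ranked 13 among the 15069 genes tested. Its reads made up between 0.462% and 1.70% of all recovered reads of a tumor. Igfbp7 followed at 92.9 FPKM, Igfbp3 at 29.5, Igfbp4 at 18.3 and Igfbp2 at 14.4 FPKM. Irs1 and Insr both stood at 9.0 FPKM, Igfbp6 at 4.64, Igf1r at 2.92 and Igf1 at 1.42 FPKM. Only the step from Igfbp5 to Igfbp7 left ranges that did not overlap over the 6 tumors. Igfbp7 lay above Igfbp3, and Igf1r above Igf1, within every tumor, whereas the order of Igfbp3, Igfbp4 and Igfbp2 changed between tumors and Irs1 lay above Insr in 3 of 6.

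**Figure D1:**
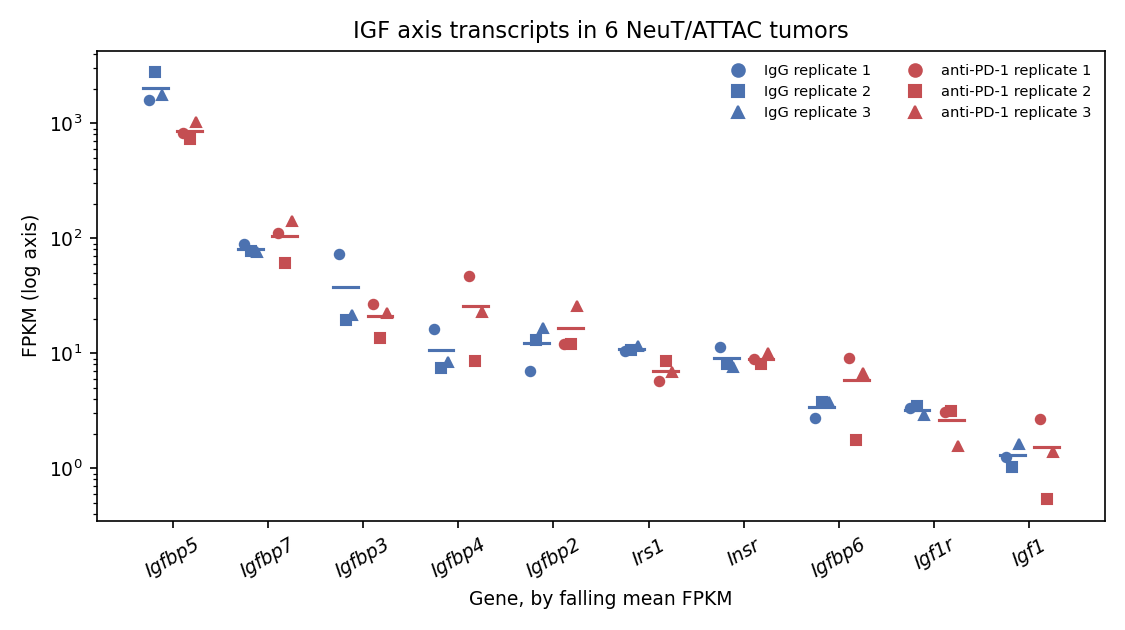
FPKM of the 10 IGF axis genes (log axis) in each of the 3 IgG (blue) and 3 anti-PD-1 (red) tumors, with genes in order of their mean and horizontal bars at the group means. Igfbp5 lies far above the other genes, and only in Igfbp5 and Irs1 do all anti-PD-1 tumors lie below all IgG tumors.

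Of the 10 members, 2 (Igfbp5 and Irs1) had an unadjusted limma p under 0.05, both lower in anti-PD-1 tumors. Among all 15069 genes tested this held for 12.3% in either direction (1848 genes), for 6.05% as lower and for 6.22% as higher genes. In the same 2 members the groups did not overlap, as in 18.1% of all genes (8.75% lower and 9.3% higher). No member had an adjusted limma p under 0.05, and no gene of the whole table did. With 6 members higher and 4 lower, the median log2 fold change of the members was 0.03, beside 0.01 for all genes tested. That median was 0.23 without anti-PD-1 replicate 2, -0.12 without anti-PD-1 replicate 1 and -0.04 without IgG replicate 2. The fold changes given here are on the log2(FPKM + 1) scale and understate differences of genes at low FPKM.

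**Figure D2:**
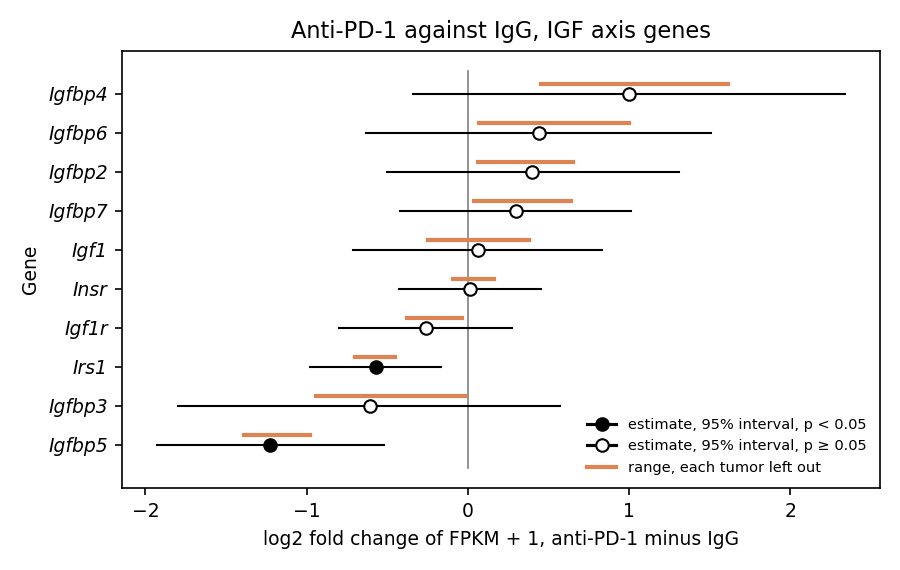
Log2 fold change of FPKM + 1 (anti-PD-1 minus IgG) for each member from limma, with its 95% interval (black line) and the range of estimates with each tumor left out in turn (orange bar). Filled points, Igfbp5 and Irs1, have an unadjusted p under 0.05, and the intervals of the other 8 members include 0.

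Igf1 (ENSMUSG00000020053, chromosome 10 from 87858265 to 87937042), the ligand, was the lowest of the members. Its level was 1.26, 1.03 and 1.62 FPKM in IgG and 2.69, 0.538 and 1.40 FPKM in anti-PD-1 tumors, from 130 to 684 reads. Both the highest and the lowest tumor were anti-PD-1 tumors, and the groups overlapped. Its log2 fold change was 0.06 (95% interval -0.71 to 0.83, limma adjusted p = 0.955), and its sign changed with single tumors, from -0.25 without anti-PD-1 replicate 1 to 0.38 without anti-PD-1 replicate 2.

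The other ligands had few reads or none. Igf2, the second IGF, had at most 1 read in any tumor. Ins2, an insulin gene, had no read in the IgG tumors or in anti-PD-1 replicate 1, and 126 and 103 reads (3.93 and 3.29 FPKM) in anti-PD-1 replicates 2 and 3. Ins1 followed the same pattern, with 24 and 22 reads in those 2 tumors and none in the other 4. In a library with no read, the limit that 3 reads set was at most 0.103 FPKM for Ins2 and 0.127 FPKM for Ins1.

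Of the receptors, Igf1r (ENSMUSG00000005533, chromosome 7 from 67952827 to 68233668), the receptor for IGF1, had 3.31, 3.47 and 2.93 FPKM in IgG tumors and 3.10, 3.16 and 1.57 FPKM in anti-PD-1 tumors. Anti-PD-1 replicate 3 lay apart from the other 5 tumors, at 631 reads. The log2 fold change of Igf1r was -0.26 (95% interval -0.80 to 0.27, limma adjusted p = 0.657), and without that tumor it was -0.04. Insr (ENSMUSG00000005534, chromosome 8 from 3122061 to 3279617), the insulin receptor, was the steadiest member, with 11.3, 8.11 and 7.67 FPKM in IgG and 8.87, 8.09 and 9.98 FPKM in anti-PD-1 tumors. The highest tumor was 1.47 times the lowest, and the log2 fold change was 0.01 (95% interval -0.43 to 0.45, limma adjusted p = 0.990). Insr lies on chromosome 8, whose genes had medians, relative to all genes, of 0.14, -0.29 and 0.14 on the log2 scale in the successive anti-PD-1 tumors.

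Insr exceeded Igf1r in every tumor. The ratio of Insr to Igf1r was 3.40, 2.34 and 2.61 in the IgG group and 2.86, 2.56 and 6.35 in the anti-PD-1 group, and anti-PD-1 replicate 3 again stood apart. The log2 ratio of Igf1r to Insr, taken on FPKM + 1, differed between the groups by -0.27, within the spread of the tumors (two-sided exact permutation test, p = 0.6), and without anti-PD-1 replicate 3 it differed by 0.03. Igf2r, the mannose 6-phosphate receptor that removes IGF2, had 51.5, 34.4 and 48.1 FPKM in IgG and 55.8, 56.9 and 70.1 FPKM in anti-PD-1 tumors. The groups did not overlap (log2 fold change 0.45, standard error 0.20, limma adjusted p = 0.421). Insrr, the orphan relative of the insulin receptor, had at most 5 reads.

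Irs1 (ENSMUSG00000055980, chromosome 1 from 82233101 to 82291416), the adaptor of both receptors, had 10.4, 10.7 and 11.6 FPKM in IgG tumors. In anti-PD-1 tumors it had 5.77, 8.57 and 6.90 FPKM. The IgG tumors were tightly grouped and every anti-PD-1 tumor lay below them, with a mean of 7.08 ± 1.41 (SD, n = 3) against 10.9 ± 0.637 (SD, n = 3) FPKM. On the log2 scale Irs1 differed by -0.57 (standard error 0.17, 95% interval -0.98 to -0.17), with an unadjusted limma p of 0.0126 and an adjusted p of 0.347. Leaving out any 1 tumor gave estimates from -0.70 to -0.45. Between 1353 and 2623 reads stood behind each value. The antisense gene Gm9747 shares exon bases with Irs1 and had no read in any tumor. The 3 against 3 tumors cannot give an exact permutation p under 0.1, which Irs1 reached (two-sided exact permutation test, p = 0.1).

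Irs2, the second widely expressed adaptor of this family, had 17.7, 14.7 and 23.4 FPKM in IgG and 14.4, 7.85 and 13.1 FPKM in anti-PD-1 tumors. The highest anti-PD-1 tumor lay just under the lowest IgG tumor, and the log2 fold change was -0.63 (standard error 0.26), with an unadjusted limma p of 0.0474 and an adjusted p of 0.405. Irs2 also lies on chromosome 8, and its lowest tumor was anti-PD-1 replicate 2. Irs3 and Irs4 had at most 11 reads in any tumor. Shc1, an adaptor that links the receptors to the RAS pathway, had 21.9, 19.4 and 16.3 FPKM in IgG and 27.2, 26.6 and 25.9 FPKM in anti-PD-1 tumors. Its groups did not overlap (log2 fold change 0.46, standard error 0.16, unadjusted limma p of 0.0216, adjusted p of 0.362).

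Igfbp5 (ENSMUSG00000026185, chromosome 1 from 72857932 to 72874884) was the most abundant member. Its level was 1586, 2784 and 1757 FPKM in IgG and 822, 722 and 1020.5 FPKM in anti-PD-1 tumors. All 3 anti-PD-1 tumors lay below all IgG tumors, and the mean of 2042 ± 648 (SD, n = 3) FPKM in IgG tumors was 2.39 times that of 855 ± 152 (SD, n = 3) FPKM after anti-PD-1. On the log2 scale Igfbp5 differed by -1.23 (standard error 0.30, 95% interval -1.93 to -0.52), with an unadjusted limma p of 0.00448 and an adjusted p of 0.344. Leaving out any 1 tumor gave estimates from -1.39 to -0.98 and unadjusted limma p-values from 0.0034 to 0.0291, whereas the fit with no filter on low FPKM gave a standard error of 0.56 and an unadjusted p of 0.069. Between 105901 and 404190 reads stood behind these values. The exact permutation test gave the smallest p that 3 against 3 allows (two-sided exact permutation test, p = 0.1).

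Several marker lists are set beside Igfbp5. The epithelial sum was 2607, 2298 and 1875 FPKM in IgG and 2484, 2650 and 3601 FPKM in anti-PD-1 tumors and thus highest in anti-PD-1 replicate 3. Within that list Krt19 went the other way, with means of 30.8 FPKM in IgG and 3.67 FPKM in anti-PD-1 tumors and no overlap (limma adjusted p = 0.404). IgG replicate 2 alone had 77.3 FPKM, and without it the log2 fold change of Krt19 was -0.96 in place of -2.03. Cdh1 had a log2 fold change of -0.34. The sum of 4 basal or myoepithelial markers was 2.45, 6.39 and 5.96 FPKM in IgG and 4.30, 2.34 and 0.852 FPKM in anti-PD-1 tumors, overlapping between the groups. All 4 had lower means in anti-PD-1 tumors, and Krt17, which passed the filter only through the IgG group, had 0.843 FPKM in IgG and 0.170 FPKM in anti-PD-1 tumors. The sum of 4 cartilage markers (Acan, Col2a1, Comp and Cnmd) separated the groups in the other direction, at 167, 30.4 and 97.8 FPKM in IgG and 427, 294.8 and 587 FPKM in anti-PD-1 tumors, with Acan at 0 in 3 tumors and Col2a1 at 0 in 1. Comp made up most of that sum, with means of 79.1 FPKM in IgG and 368 FPKM in anti-PD-1 tumors, while Cnmd and Col2a1 overlapped between the groups. Cnmd, with means of 17.5 FPKM in IgG and 65.0 FPKM in anti-PD-1 tumors, overlapped narrowly, at 37.6 against 36.7 FPKM. Its log2 fold change was 2.29 (unadjusted limma p of 0.0205, adjusted p of 0.358). The part of these cells in the difference of Igfbp5 was not tested.

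Igfbp2 (ENSMUSG00000039323, chromosome 1 from 72824503 to 72852474), a binding protein of both IGFs, lies next to Igfbp5 and is transcribed toward it. Igfbp2 had 7.002, 13.03 and 16.6 FPKM in IgG and 12.1, 12.04 and 25.9 FPKM in anti-PD-1 tumors, with IgG replicate 1 lowest, anti-PD-1 replicate 3 highest and overlap between the groups. The log2 fold change was 0.40 (95% interval -0.50 to 1.31, limma adjusted p = 0.690), and it ran from 0.06 without anti-PD-1 replicate 3 and 0.08 without IgG replicate 1 to 0.65 without IgG replicate 3. Igfbp5 was 227, 214 and 106 times Igfbp2 in the IgG tumors and 68.1, 60.0 and 39.5 times in the anti-PD-1 tumors. The log2 of this ratio, with no pseudocount, differed by -1.66 and its groups lay apart (exact permutation test, two-sided, p = 0.1). Igfbp5 alone already separated the groups, so that the ratio largely repeats its difference and is no separate result. The tested genes of chromosome 1 had a median shift of 0.03 relative to all genes.

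Igfbp3 (ENSMUSG00000020427, chromosome 11 from 7206086 to 7213923), the main IGF carrier of serum, stood out in 1 tumor. IgG replicate 1 had 72.7 FPKM, while IgG replicates 2 and 3 had 19.5 and 21.6 and the anti-PD-1 tumors 26.8, 13.6 and 22.6 FPKM. The log2 fold change was -0.61 (95% interval -1.80 to 0.57, limma adjusted p = 0.638), and without IgG replicate 1 it was -0.02.

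Igfbp4, Igfbp6 and Igfbp7 had higher means in anti-PD-1 tumors, and in each of them anti-PD-1 replicates 1 and 3 were the 2 highest tumors while anti-PD-1 replicate 2 lay among the IgG tumors or below them. Igfbp4 (ENSMUSG00000017493, chromosome 11 from 99041244 to 99054392), a binding protein that holds back IGF1 until the protease PAPP-A cuts it, had 16.3, 7.41 and 8.33 FPKM in IgG and 46.6, 8.55 and 22.9 FPKM in anti-PD-1 tumors. Its log2 fold change was 1.00 (95% interval -0.34 to 2.34, limma adjusted p = 0.502), and 1.61 without anti-PD-1 replicate 2 against 0.45 without anti-PD-1 replicate 1. Igfbp6 (ENSMUSG00000023046, chromosome 15 from 102144362 to 102149511), which binds IGF2 preferentially, had 2.76, 3.79 and 3.76 FPKM in IgG and 9.04, 1.77 and 6.70 FPKM in anti-PD-1 tumors, from 48 to 258 reads. Its log2 fold change was 0.44 (95% interval -0.63 to 1.51, limma adjusted p = 0.717), with 0.07 without anti-PD-1 replicate 1 and 1.00 without anti-PD-1 replicate 2. Genes of chromosome 15 had a median of 0.34 relative to all genes in anti-PD-1 replicate 3, and between -0.16 and 0.01 in the other tumors.

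Igfbp7 (ENSMUSG00000036256, chromosome 5 from 77349240 to 77408041), a related secreted protein with low affinity for IGFs that is abundant in blood vessels, had 89.2, 76.8 and 76.3 FPKM in IgG tumors. In anti-PD-1 tumors it had 112, 61.2 and 143 FPKM, on both sides of the IgG tumors. The log2 fold change was 0.30 (95% interval -0.42 to 1.01, limma adjusted p = 0.718), with 0.04 without anti-PD-1 replicate 3 and 0.64 without anti-PD-1 replicate 2. Igfbp7 shares exon bases with Polr2b on the opposite strand. The sum of 5 endothelial markers was highest in IgG replicate 1, at 20.2, 13.9 and 18.6 FPKM in IgG and 17.1, 9.31 and 13.8 FPKM in anti-PD-1 tumors. The sum of 5 mural cell markers was 44.7, 40.3 and 39.6 FPKM in IgG and 50.6, 25.4 and 57.4 FPKM in anti-PD-1 tumors, which puts the 6 tumors in the same order as Igfbp7. Of the 4 mural markers tested, Acta2 had a log2 fold change of 0.55, Rgs5 of -0.46, Myh11 of -0.25 and Pdgfrb of -0.14. The median over all 5 mural markers of log2 values centred on each gene's mean did not keep the order of the sum. By it, IgG replicate 3 (0.06) lay above IgG replicate 2 (-0.01). The part of mural cells was not tested. With anti-PD-1 replicate 2 left out, Igfbp4, Igfbp6 and Igfbp7 all had an unadjusted limma p under 0.05, which raised the count of members from 2 to 5 while the share of all genes was 9.27%.

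The tumors with the highest fibroblast marker sums, which consist mostly of collagen RNA, were also high in several of these genes. Anti-PD-1 replicate 1, with the highest fibroblast marker sum, had the highest Igf1, Igfbp4 and Igfbp6, and the 3 tumors with the lowest fibroblast sums had the 3 lowest values of Igfbp4. Igfbp6 and Igf1 were exceptions in IgG replicate 1, which was the second highest in fibroblast markers but had less Igfbp6 than the other IgG tumors and less Igf1 than IgG replicate 3. Igfbp5 was highest in IgG replicate 2, the tumor with the lowest fibroblast sum, and lowest in anti-PD-1 replicate 2, which had the next lowest sum. The sum of 5 macrophage markers was 184.7, 224 and 132 FPKM in IgG and 256, 171 and 268.5 FPKM in anti-PD-1 tumors. Anti-PD-1 replicates 1 and 3 were highest in it, as they were in the mural sum and in Igfbp4, Igfbp6 and Igfbp7. C1qa made up most of the macrophage sum, with a mean of 160 FPKM. By the median centred log2 value of the 5 markers, IgG replicate 2 (0.19) lay above anti-PD-1 replicate 1 (0.10). Among these markers Cd68 was higher in anti-PD-1 tumors at an unadjusted limma p of 0.00438 (adjusted p of 0.344). The other 4 macrophage markers did not pass, with log2 fold changes of 0.01 for Adgre1, 0.11 for Csf1r, 0.34 for C1qa and 0.49 for Mrc1. The part of fibroblasts and macrophages in these values was not tested.

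**Figure D3:**
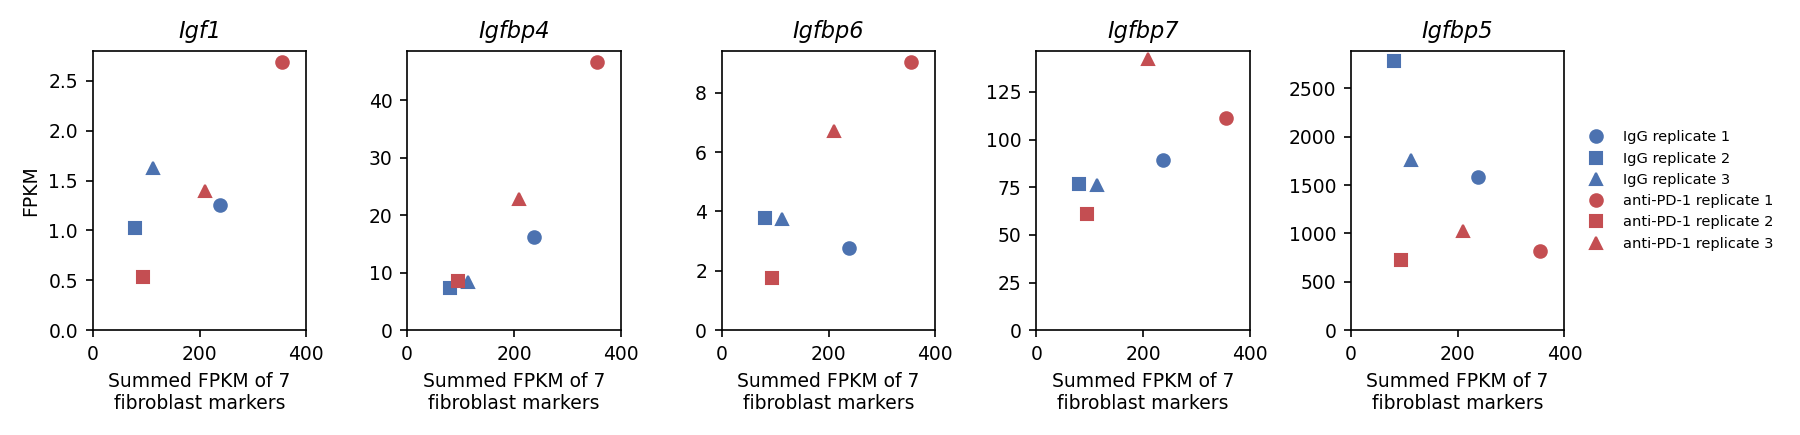
FPKM of Igf1, Igfbp4, Igfbp6, Igfbp7 and Igfbp5 in each tumor (y axes, separate scales from 0) against the summed FPKM of 7 fibroblast markers in the same tumor (x axis), with IgG in blue and anti-PD-1 in red. Igfbp4 is lowest in the 3 tumors with fibroblast sums of 80.2 to 114 FPKM. In Igfbp5 all anti-PD-1 tumors lie below all IgG tumors.

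The binding proteins were also compared as a mixture, as the share of each in their summed FPKM within a tumor, with Igfbp1 (at most 1 read) included. The sum itself was 1774, 2904 and 1883 FPKM in IgG and 1027, 820 and 1241 FPKM in anti-PD-1 tumors, with the groups apart (exact permutation test, two-sided, p = 0.1). Without Igfbp5 the sum was 145 ± 37.3 (SD, n = 3) FPKM in IgG and 175 ± 67.5 (SD, n = 3) in anti-PD-1 tumors, and the groups overlapped. Igfbp5 made up 89.4%, 95.9% and 93.3% of the sum in the IgG group and 80.0%, 88.2% and 82.2% in the anti-PD-1 group. The share of Igfbp7 was 5.03%, 2.64% and 4.05% in the IgG group and 10.9%, 7.46% and 11.5% in the anti-PD-1 group. The shares of Igfbp2, Igfbp4, Igfbp5, Igfbp6 and Igfbp7 did not overlap between the groups (exact permutation p = 0.1 for each, 0.14 after adjustment over the 7 shares). The shares add up to a fixed total, so that a lower Igfbp5 raises the others by construction. The shares of Igfbp3 overlapped, with IgG replicate 1 highest at 4.1%.

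**Figure D4:**
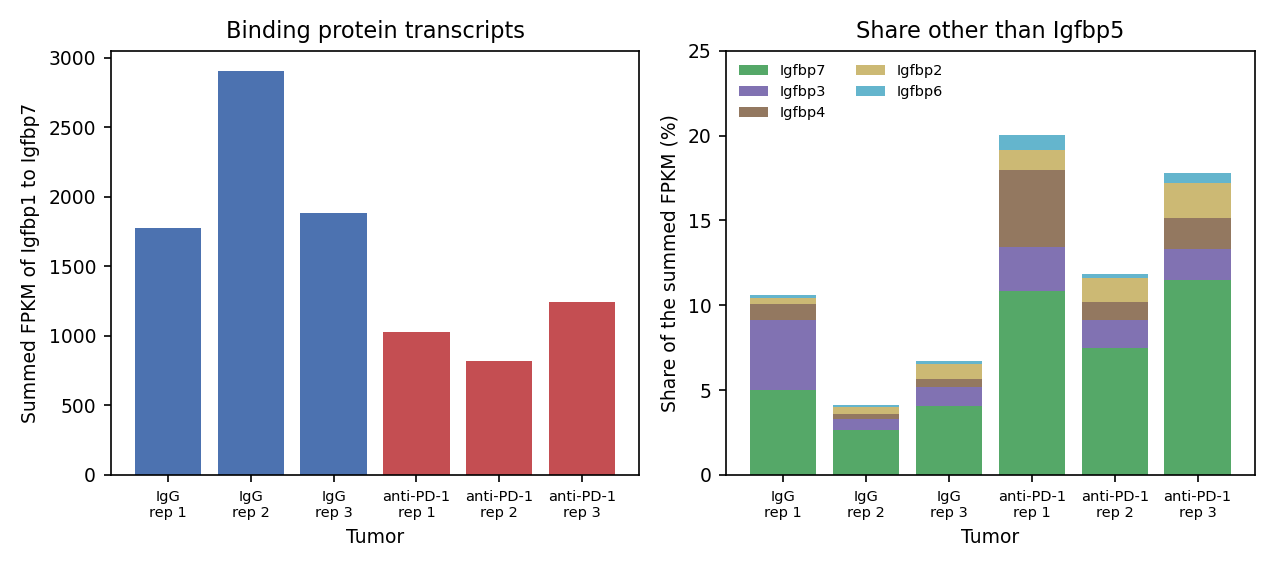
Left, summed FPKM of Igfbp1 to Igfbp7 in each tumor (bars from 0, IgG in blue and anti-PD-1 in red). Right, the share of that sum taken by each binding protein other than Igfbp5 (stacked, in percent, axis to 25%), which is largest in anti-PD-1 replicate 1 and smallest in IgG replicate 2.

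A wider list of 70 genes around the axis was described in the same fit, and 58 of them passed the filter. Of the 58, 9 had an unadjusted limma p under 0.05, 3 higher and 6 lower in anti-PD-1 tumors, and none an adjusted p under 0.05. One of the higher genes, Ins2, passed the filter only through the anti-PD-1 group, where it is high. The share of 15.5%, with Ins2 included, stood beside 12.3% for all genes tested. The median log2 fold change of the list was -0.08. The genes that take the signal from AKT onward (15 tested, among them Mtor, Tsc1, Foxo1 and Gsk3b) held no gene at an unadjusted p under 0.05, nor did the 6 brakes on the receptors such as Grb10, Ptpn1 and Socs3. In 2 of those 15 the groups did not overlap, beside 18.1% of all genes. Mtor was 1 of the 2, lower in anti-PD-1 tumors (log2 fold change -0.46, limma adjusted p = 0.433).

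Stat5a, Pik3r3 and Sesn3 kept an unadjusted p under 0.05 whichever tumor was left out, and the other 6 of the 9 did not. Stat5a and Stat5b, transcription factors activated by growth hormone and prolactin receptors, were both lower. Stat5a had 10.1, 18.5 and 18.9 FPKM in IgG and 9.08, 5.11 and 7.92 FPKM in anti-PD-1 tumors (log2 fold change -0.99, standard error 0.29, unadjusted limma p of 0.0114, adjusted p of 0.346). Stat5b had 17.2, 26.8 and 29.7 FPKM in IgG and 14.7, 12.8 and 16.2 FPKM in anti-PD-1 tumors (log2 fold change -0.68, standard error 0.23, unadjusted limma p of 0.0189, adjusted p of 0.355). In both genes the groups did not overlap and IgG replicate 1 lay closest to the anti-PD-1 tumors. The growth hormone receptor gene Ghr had a log2 fold change of 0.04.

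Stc2, whose product blocks the protease PAPP-A, had 3.09, 3.61 and 4.01 FPKM in IgG and 2.91, 0.847 and 1.65 FPKM in anti-PD-1 tumors, and the groups lay apart (log2 fold change -0.77, standard error 0.28, unadjusted limma p of 0.0297, adjusted p of 0.374). The PAPP-A gene itself, Pappa, did not pass the filter. Igfals, the acid-labile subunit that joins IGF and its binding protein in serum, had 25.9, 39.4 and 56.0 FPKM in IgG and 16.2, 7.69 and 30.2 FPKM in anti-PD-1 tumors. The groups overlapped (log2 fold change -1.24, standard error 0.48, unadjusted limma p of 0.0346, adjusted p of 0.383), and whole reads could not be recovered for Igfals with the exon lengths used here.

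Pik3r3, a regulatory subunit of PI3K, had 9.41, 5.56 and 5.05 FPKM in IgG and 12.4, 11.2 and 14.5 FPKM in anti-PD-1 tumors (log2 fold change 0.87, standard error 0.24, unadjusted limma p of 0.00764, adjusted p of 0.344). It lies on chromosome 4, whose tested genes had a median shift of -0.41, while Pik3r3 itself was higher, and it shares exon bases with Gm49337. Sesn3, a FOXO-induced gene, had 5.21, 11.4 and 10.5 FPKM in IgG and 4.85, 3.10 and 2.97 FPKM in anti-PD-1 tumors (log2 fold change -1.07, standard error 0.30, unadjusted limma p of 0.00910, adjusted p of 0.344). Sesn3 lies on chromosome 9, whose genes had a median shift of -0.36 in the same direction. It was the only gene past the threshold among the 8 FOXO-induced genes, whose median log2 fold change was -0.06. Ins2 completed the 9, but the filter it passed through the anti-PD-1 group alone makes its p no evidence of a difference. For comparison, the chromosomes of the members other than Igfbp6 had median shifts between -0.03 and 0.07.

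**Figure D5:**
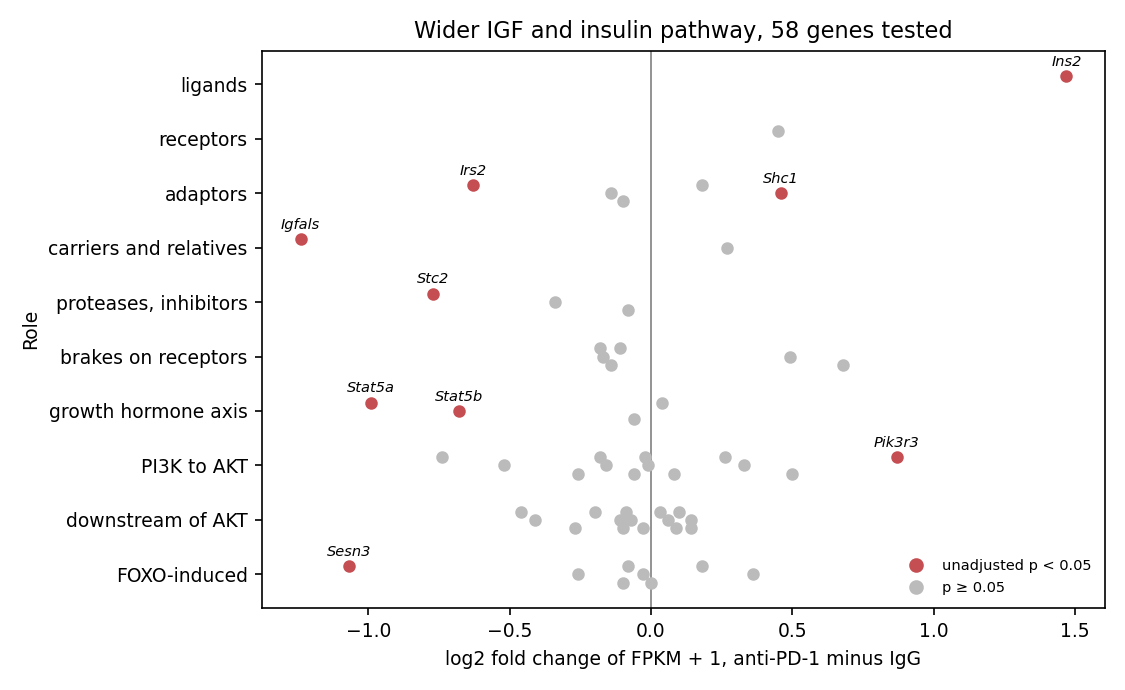
Log2 fold change of FPKM + 1 (anti-PD-1 minus IgG) of the 58 tested genes of the wider list, by role. The 9 genes with an unadjusted p under 0.05 are red and named, 3 to the right and 6 to the left of 0, and the genes downstream of AKT are all grey.

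For the members, the protein-coding gene with the nearest profile over the 6 tumors was sought among 7605 genes with a mean of at least 5 FPKM, by the mean absolute difference of centred log2 values. Cops2 was nearest to Irs1 (0.075, where the median of the genes compared was 0.358). Cidea was nearest to Igfbp4 (0.102), Mpv17l2 to Igfbp6 (0.122), Sirpa to Igfbp7 (0.10) and Dusp6 to Igfbp2 (0.129). Igf1r was matched by Nap1l1 (0.053), Insr by Hs2st1 (0.050) and Igf1 by 2310022B05Rik (0.086). Igfbp3 had the poorest match, Rpl39, at 0.314. With 6 tumors and 7605 genes, near matches are to be found for most profiles.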

How the data were processed

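RNAseq of 6 NeuT/ATTAC mammary tumors was re-analyzed, with groups and replicate numbers from the sample labels. By the study's methods and the submitters' processing notes, the authors used FastQC 0.11.9, Cutadapt 3.5, Bowtie2 2.4.1 and RSEM 1.3.1 on mm10, and DESeq2 1.36.0 in R 4.1 for their own test. The authors deposited FPKM values, and how these were made is not given in the sources used here. Of 54532 gene IDs, 54495 matched GENCODE release M21 (GRCm38). FPKM times merged exon length gave whole reads, within 0.1, in all tumors for 27869 of the 28732 IDs above 0, the 10 members included. No 2 libraries were identical.

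FPKM values were divided by median-of-ratios factors (between 1.0023 and 1.0096), and log2(FPKM + 1) was tested, for genes whose mean FPKM reached 0.5, with limma 3.58.1 in R 4.3.3 (eBayes with trend, two-sided, Benjamini-Hochberg over 15069 genes). The authors' count test was not repeated, and the recovered reads were tested with voom as an alternative. Single values were compared with exact permutation tests. Genes named singly were the 10 members, genes of the wider list at an unadjusted p under 0.05, the other ligands, receptors and IRS adaptors, Igfbp1 and Igfals, and for each member 1 gene of nearest profile, which for Igfbp5 is not reported here. Marker genes, Ghr, Pappa and the list examples were named outside that rule. Members and lists were chosen with earlier results of these data known, and the islet list after the insulin reads were seen.

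The test was first tested on simulated data. Alternatives were another pseudocount, filter or scaling, no trend, voom on recovered reads, a replicate block and leaving out each tumor. Python 3.11.15, numpy 2.4.6, pandas 2.3.3, scipy 1.17.1 and matplotlib 3.10.9 were used.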

Additional observations from a re-analysis of the deposited data

How the results depend on the processing

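No member had an adjusted p under 0.05 under any alternative run. Of the 2 members at an unadjusted p under 0.05, Irs1 stayed under it in every alternative and Igfbp5 in all but the fit with no filter on low FPKM, where its p was 0.069 and the count of members was 1. With each tumor left out the count of members ran from 2 to 5 (5 without anti-PD-1 replicate 2), and the count of the wider list, 9, from 3 (without anti-PD-1 replicate 2) to 12 (without IgG replicate 1), with 5 without IgG replicate 2 and 6 without IgG replicate 3 or anti-PD-1 replicate 3. Of 139 values of single members under the alternatives, 6 changed sign, all of Igf1 or Insr. Igf1 was -0.01 with voom on recovered reads, -0.25 without anti-PD-1 replicate 1 and -0.03 without IgG replicate 2 (from -0.25 to 0.38 over the tumors left out). Insr was -0.06 without anti-PD-1 replicate 3, -0.05 without IgG replicate 2 and -0.09 without IgG replicate 3 (from -0.09 to 0.16). The causes were not tested. Igf1 was not tested at a mean FPKM of at least 2. Over all genes, 1848 had an unadjusted p under 0.05, against 2679 on leaving out IgG replicate 1 (12 of them at an adjusted limma p under 0.05), 961 on leaving out IgG replicate 2, 1397 (9.27%) on leaving out anti-PD-1 replicate 2 and 1158 on leaving out anti-PD-1 replicate 3. On leaving out IgG replicate 3, 1 gene had an adjusted p under 0.05. The labels number replicates 1 to 3 in both groups and do not say whether the numbers pair the tumors. The deviations of same-numbered tumors from their group means correlated at -0.164, 0.005 and 0.194, and 2 of 6 tumors correlated best with their own number. So small a check cannot settle whether the tumors are paired. With the replicate number as a block, 3 members (Igfbp4 added) and 13 genes of the wider list had an unadjusted p under 0.05, beside 11.4% of all genes. Igfbp6, with 48 to 258 reads, and Igf1 were the members with the fewest reads.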

Other observations

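Reads of hormone genes of the pancreatic islet occurred in some tumors. Besides Ins1 and Ins2, 8 islet genes were looked up after the insulin reads had been seen, so their values are a description. Iapp, the islet amyloid peptide gene, had 24 and 29 reads in anti-PD-1 replicates 2 and 3 and none in the other 4 tumors. Chga, a secretory granule gene of endocrine cells, had 33 and 30 reads in those tumors and at most 3 in any other. Gcg, which encodes glucagon, had 8 and 15 reads there and 6 in IgG replicate 2, and Ppy had 5 and 3 reads there and none elsewhere. Mafa, a beta cell transcription factor, had 14 reads in anti-PD-1 replicate 2 and at most 2 elsewhere. Pdx1 had at most 2 reads in any tumor, Sst had none, and Slc2a2 had 4, 2 and 2 reads in IgG tumors and none in anti-PD-1 tumors. Of 5 acinar genes, Prss2, Amy2b and Pnlip had no read, Cpa1 had 4 and 10 reads in anti-PD-1 replicates 1 and 2, and Cela1 had 345 reads in anti-PD-1 replicate 3 and between 26 and 61 in the others. The source of these reads was not tested.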
